A study of Mus musculus with 6 samples.

Results

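The SLAM family receptors and their adaptor SAP were measured as transcripts in bulk RNA of unfractionated splenic CD4 T cells from NOD mice, an inbred strain that develops autoimmune diabetes spontaneously. The 8 genes, Slamf1, Slamf6, Slamf7, Cd84, Ly9, Cd48, Cd244a and Sh2d1a, were chosen by symbol as the classical receptors of the family plus the gene of SAP, and all 8 were found among the 28914 genes of the deposited table by their Ensembl identifiers (GENCODE M21, GRCm38). The mice had reached an age of 12 weeks, and their T cell receptors were not stimulated again before RNA was taken. The 6 libraries form 3 groups of 2: controls of genotype WT, cells of genotype Blimp1 knockout (CKO), and cells of genotype Blimp-1 overexpression (BTg). For the promoter of the transgene, the Cre line and the deleted exons, nothing is stated in the labels. Nor do these tell if both libraries of a genotype stem from different animals, so every p-value below measures the spread between these libraries only, which may be technical.

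SLAM receptors are surface proteins of the CD2 and immunoglobulin superfamilies that hold blood cells together. Most bind the same receptor on the neighbouring cell, whereas CD48, which is anchored in the membrane by a lipid, binds CD244 and CD2. Apart from CD48, most of the receptors carry tyrosine motifs in their cytoplasmic tails that are docked by SAP. This small SH2-domain adaptor brings in the kinase Fyn. In CD4 T cells this route serves lasting contact with B cells and T follicular helper function. Prdm1 encodes Blimp-1, which represses transcription through DNA-binding zinc fingers. The comparisons ask whether transcripts of this receptor system were at other levels in the knockout and overexpression genotypes than in WT.

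The 7 receptor genes lie together on chromosome 1, between 171559193 and 171953170 on GRCm38, a stretch of 394 kb, and Sh2d1a lies on chromosome X at 42502453 to 42529330. From low to high coordinate the receptor genes are Cd244a (ENSMUSG00000004709, 171559193 to 171609746, plus strand), Ly9 (ENSMUSG00000004707, 171588624 to 171607410, minus strand), Slamf7 (ENSMUSG00000038179, 171632403 to 171653035, minus strand) and Cd48 (ENSMUSG00000015355, 171682009 to 171705258, plus strand). They are followed by Slamf1 (ENSMUSG00000015316, 171767127 to 171801184), Cd84 (ENSMUSG00000038147, 171839697 to 171890718) and Slamf6 (ENSMUSG00000015314, 171917515 to 171953170), all on the plus strand. Ly9 lies wholly within the annotated span of Cd244a on the other strand, with 0 exonic bases in common. Sh2d1a (ENSMUSG00000005696, plus strand) shares 1465 exonic bases with Tenm1 on the other strand, and Slamf7 shares 423 with the predicted gene Gm37787 and Mir7683. The rule that assigned reads on shared stretches was not known here. The Sh2d1a and Slamf7 counts carry that uncertainty, and its size in each library was not tested.

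RefSeq (GRCm38.p6) held a promoter for 6 of the 8 genes, with none matched for Ly9 and Sh2d1a. A pair of upstream stretches is shown, that of Slamf7, the one member whose 3 groups stood apart, and that of Slamf1, the other member whose BTg and WT libraries did not overlap. Each line gives the 250 bases before the RefSeq start, 5′ to 3′ on the gene's own strand, chr1:171649000-171649249 (minus strand) for Slamf7 and chr1:171766882-171767131 (plus strand) for Slamf1. Capitals mark GAAAG, a core of the sequences that Blimp-1 is known to bind, or its reverse complement CTTTC.
Slamf7: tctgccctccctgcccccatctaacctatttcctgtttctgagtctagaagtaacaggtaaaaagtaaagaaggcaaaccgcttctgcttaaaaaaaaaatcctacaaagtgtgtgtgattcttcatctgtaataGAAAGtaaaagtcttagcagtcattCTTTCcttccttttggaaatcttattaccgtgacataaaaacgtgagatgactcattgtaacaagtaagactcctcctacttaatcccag
Slamf1: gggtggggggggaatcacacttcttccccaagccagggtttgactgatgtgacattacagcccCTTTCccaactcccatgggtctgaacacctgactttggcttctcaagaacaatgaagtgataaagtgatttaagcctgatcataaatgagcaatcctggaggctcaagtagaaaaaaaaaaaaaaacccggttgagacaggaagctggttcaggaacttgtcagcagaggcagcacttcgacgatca
The Slamf7 stretch holds GAAAG once on each strand, and the Slamf1 stretch holds it once, on the opposite strand. The Cd244a stretch holds it 2 times, that of Cd48 once, and those of Cd84 and Slamf6 0 times. Among 27025 promoters of the same length, 51.4% hold this short motif on either strand. The longer form GNGAAAG, which contains the shorter one, was found in the stretches of Slamf1 and Cd244a, and in 19.4% of all promoters; Slamf7 did not hold it. These matches describe letters in a window and no binding was measured. The Slamf7 window, though before the RefSeq start, lies inside the annotated span of that gene, 171632403 to 171653035. The bases are those of the reference build and were not read in NOD mice.

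Depth was 14958458 to 17799091 gene-assigned reads per library. Prdm1, the gene targeted in the study, stood at 0.458 and 0.628 FPKM (fragments scaled to gene length and to library size) in WT, at 0.849 and 0.669 in CKO, and at 19.6 and 30.1 in BTg. It was therefore high in BTg but not low in CKO; a sum over the whole gene cannot check the loss of part of it, and directions drawn from the libraries labelled CKO rest on the label. Cd4 was present in all 6 libraries at 126 to 243 FPKM per exon length, against 0.0464 to 0.202 for Cd8a. On the first principal component (56.5% of variance) the library labelled CKO replicate 1 lay far from the other 5: its summed neutrophil markers reached 15205 FPKM per exon length against 45.7 to 316 in the others, and its summed CD4 T cell markers were 875 against 1204 to 1759. In bulk RNA, fewer cells of a type and less RNA per cell cannot be told apart.

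Levels of different genes were compared per exon length, because the deposited FPKM divide by a span that includes introns. On this scale Cd48, the ligand for CD244 and CD2, was the most abundant member, at 99.3 FPKM per exon length over the 6 libraries, and it ranged from 66.7 to 146. Ly9, a self-binding receptor also called CD229, followed at 58.4, Cd84 at 35.5 and Slamf6, also known as Ly108, at 26.4. This order of the 4 genes held in each of the 6 libraries, although the ranges of neighbouring genes over all libraries overlapped. The adaptor gene Sh2d1a came next at 10.8, below the lowest Slamf6 library (20.2 against a highest Sh2d1a value of 14.5). Slamf1, also called CD150, stood at 5.21 and Slamf7, also called CRACC or CS1, at 3.14. Their order was the same in 5 of the 6 libraries and their ranges overlapped. Cd244a, the receptor for CD48 that is best known from natural killer cells, was lowest at 0.775, from 43 to 84 reads per library. This order of the members takes the reads to have been counted over exons, which was not checked. In the deposited FPKM the order differed, with group means of 17.6 to 21.1 for Slamf6 and 4.78 to 5.45 for Cd48.

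**Figure D1:**
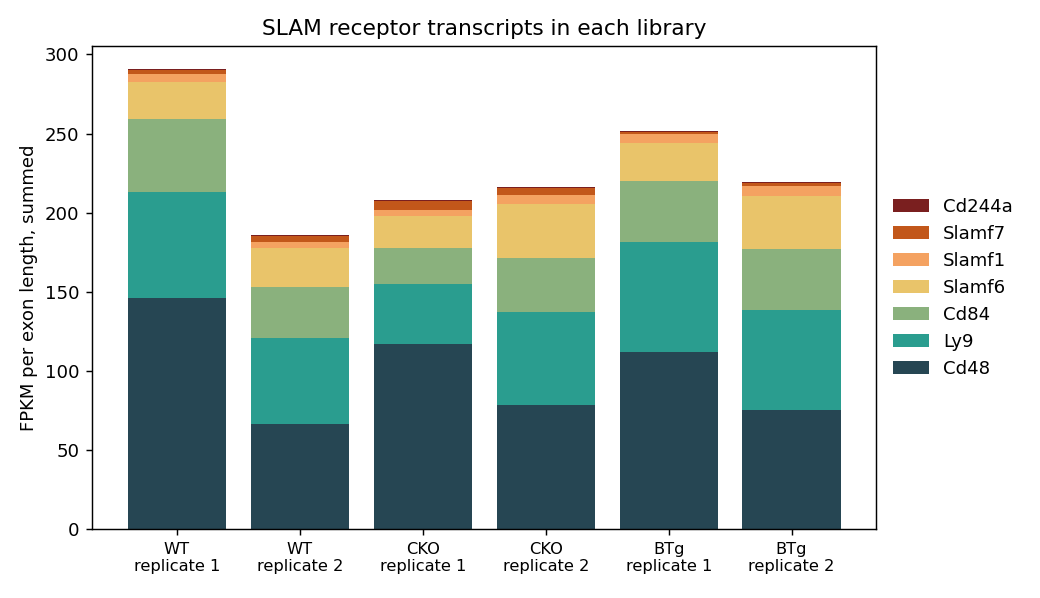
Stacked bars give the level of each of the 7 SLAM receptor genes, in FPKM per exon length, in each of the 6 libraries. Cd48 is the largest part of every bar (34.4 to 56.3% of the sum) and Slamf7 and Cd244a are thin slices at the top.

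The summed level of the 7 receptors ranged from 186 FPKM per exon length in WT replicate 2 to 291 in WT replicate 1, and the 4 other libraries, at 209 to 251, fell between these. Cd48 made up 50.3, 56.3 and 44.4% of the sum in replicate 1 of WT, CKO and BTg, against 35.9, 36.4 and 34.4% in replicate 2. Ly9 contributed 18.3 to 29%, Cd84 10.8 to 17.6% and Slamf6 7.99 to 15.5%. The spread within WT was thus as wide as the whole spread of the sum. Slamf7 made up 2.61 and 2.15% in CKO, 0.844 and 1.76% in WT, and 0.582 and 0.72% in BTg.

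The filter of at least 1 FPKM in at least 2 libraries was passed by 7 of the 8 members, all but Cd244a. In CKO against WT, 0 of the 7 had a limma adjusted p under 0.05, where the background over 10798 genes tested was 0% called. In BTg against WT and in BTg against CKO it was again 0 of 7, against a background of 0.0185% in each. At an unadjusted limma p under 0.05 the counts were 0, 0 and 1 of 7, against backgrounds of 4.2, 1.62 and 8.79%. A voom fit to reads recovered from the deposited values also called 0 members. Differences above 0 were found for 3, 3 and 4 of the 7, against 45.4, 54.5 and 56.1% of genes tested. On the log2(FPKM + 1) scale the members' median difference was -0.02 in CKO against WT, -0.01 in BTg against WT and 0.10 in BTg against CKO, beside medians of -0.03, 0.02 and 0.06 over all genes tested. Without CKO replicate 1 the members' medians were 0.11, -0.01 and 0.05, beside 0.11, 0.02 and -0.05 over all genes tested, and 0 members and 0 genes in all passed.

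**Figure D2:**
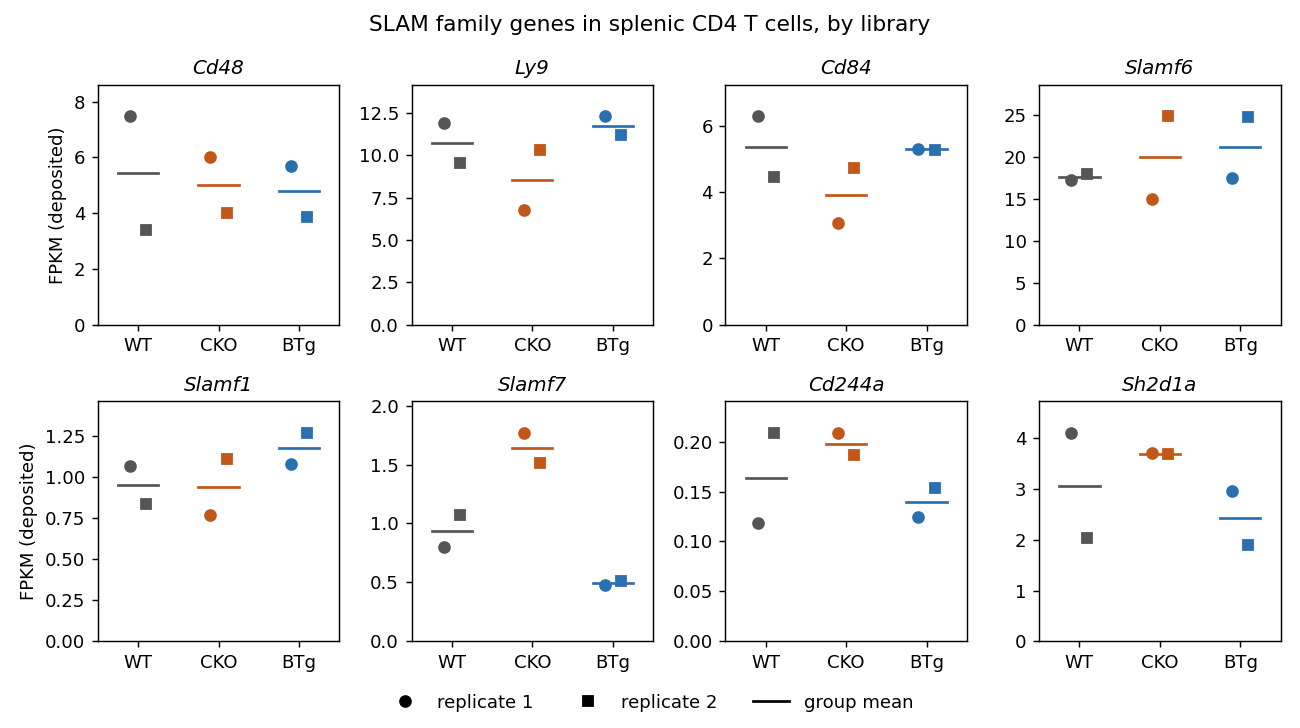
Each panel plots the deposited FPKM of 1 gene in the 6 libraries, with circles for replicate 1, squares for replicate 2 and a line for the group mean of 2. Slamf7 is the gene whose 3 groups are fully apart, and Cd48 shows replicate 1 above replicate 2 in all 3 groups.

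Slamf7 was the member that differed most. Its protein binds itself, and it is found on natural killer cells, plasma cells, myeloid cells and activated T cells. It stood at 1.77 and 1.51 FPKM in CKO, from 444 and 377 reads, at 0.799 and 1.07 FPKM in WT, from 200 and 229 reads, and at 0.475 and 0.513 FPKM in BTg, from 102 and 108 reads. The 3 groups did not overlap, with both CKO libraries highest and both BTg libraries lowest; 2.76% of genes tested were ordered in this way. Slamf7 passed the filter through WT replicate 2 and the CKO libraries, so its being tested is itself tied to those levels.

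In BTg against CKO the log2 difference of Slamf7 was -0.82 (SE 0.21, 95% interval -1.34 to -0.30), and with a limma adjusted p = 0.412 it did not pass over all genes. It is the 1 member with an unadjusted p under 0.05. The pseudocount understates the change of so low a gene: the mean FPKM was 3.32-fold higher in CKO than in BTg, and voom put the log2 difference at -1.72 (SE 0.36; limma adjusted p = 0.122). Against WT, Slamf7 in CKO differed by 0.45 (SE 0.21, interval -0.07 to 0.98), a 1.76-fold ratio of mean FPKM. In BTg against WT it was -0.37 (SE 0.21, interval -0.89 to 0.16), with WT at 1.89-fold the mean of BTg; both had limma adjusted p = 1. By voom these were 0.83 and -0.89, with adjusted p = 0.823 and 1. Without CKO replicate 1 the difference between BTg and CKO was -0.75 (interval -1.37 to -0.12, limma adjusted p = 0.835). Without BTg replicate 1 it was -0.80 (interval -1.66 to 0.05) and without BTg replicate 2 it was -0.84 (interval -1.71 to 0.04), so the interval took in 0 when either BTg library was left out.

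The summed plasma cell and neutrophil markers were both apart in the same order of groups as Slamf7, CKO, WT and BTg. Summed over 8 genes, the plasma cell list stood at 2403 and 630 FPKM per exon length in CKO. It stood at 419 and 406 in WT, and 354 and 230 in BTg. All 8 were higher in CKO than in WT by group mean and all 8 lower in BTg; 8 of 8 were highest in CKO replicate 1. Jchain, the joining chain of secreted antibodies, led the sum with 2045 and 496 in CKO, 352 and 310 in WT, and 282 and 159 in BTg, and 0 of the 8 were at 0 reads in a library. The neutrophil list (10 genes) stood at 15205 and 316 in CKO, 82.9 and 242 in WT, and 45.7 and 48.2 in BTg. The monocyte and macrophage list (9 genes) stood at 741 and 107, 17.7 and 69.3, and 15.6 and 17.7 in the same order of groups. By group mean 10 of 10 neutrophil genes were higher in CKO than in WT and 10 lower in BTg. All 10 were highest in CKO replicate 1. Of the 9 monocyte and macrophage genes, 9 were higher in CKO than in WT and 6 lower in BTg. CKO replicate 1 was highest for 9. In the neutrophil list Retnlg, and in the monocyte and macrophage list Ms4a7, had 0 reads in at least 1 library. The natural killer list (8 genes) stood at 4.64 and 7.76 in CKO, 5.98 and 6.48 in WT, and 3.56 and 5.29 in BTg. By group mean 3 of its 8 genes were higher in CKO than in WT and 7 were lower in BTg. Klra8 had 0 reads in at least 1 library. Slamf7 was 5.45 and 4.65 FPKM per exon length in CKO replicates 1 and 2, and the plasma cell sum was 2403 and 630 there. In CKO replicate 2 the plasma cell, neutrophil and monocyte sums, at 630, 316 and 107, were each above both WT libraries. The part of these cells in the Slamf7 values was not tested.

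**Figure D3:**
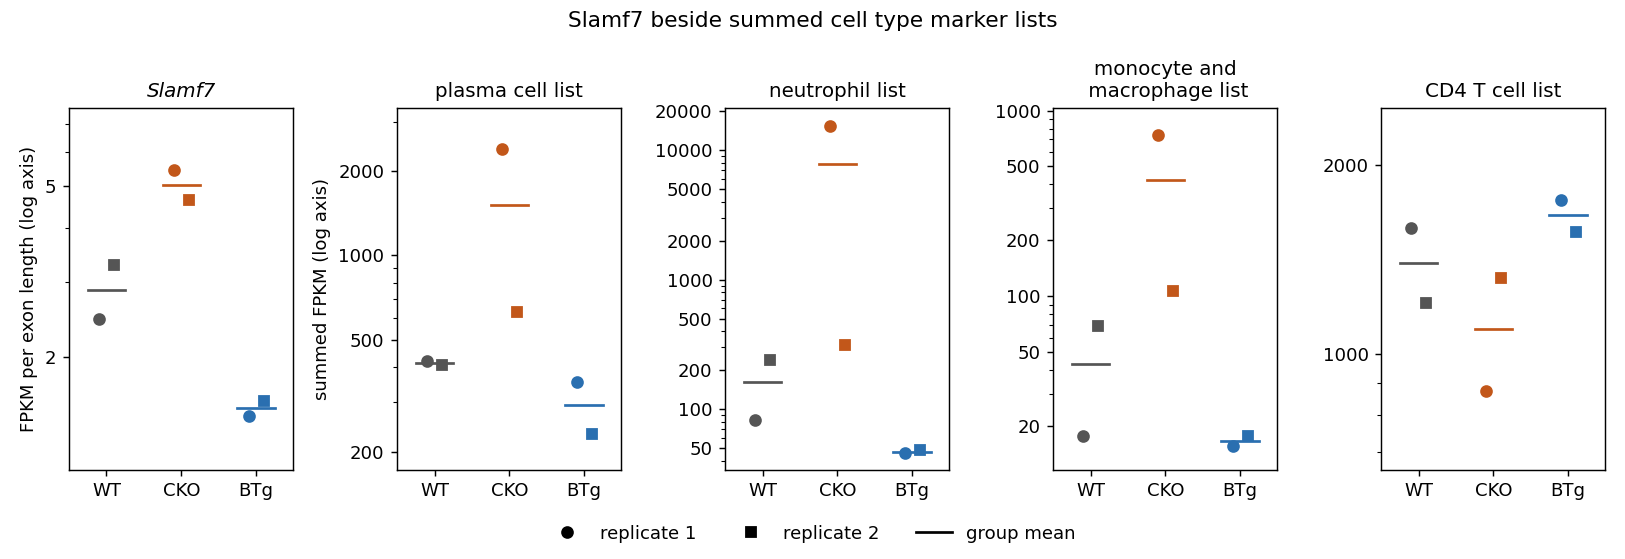
Slamf7 and the summed marker genes of 4 cell types are plotted per library in FPKM per exon length on log axes, with circles for replicate 1, squares for replicate 2 and lines for group means. Slamf7 is similar in both CKO libraries, at 5.45 and 4.65, whereas the plasma cell, neutrophil and monocyte lists are far higher in CKO replicate 1 than in replicate 2.

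Sh2d1a, which encodes SAP, stood at 4.11 and 2.03 FPKM in WT, 3.71 and 3.69 in CKO, and 2.96 and 1.89 in BTg, from 551 to 1421 reads per library. The WT libraries spanned the CKO values, while both BTg libraries were below both CKO libraries. That order of BTg below CKO was seen in 2 of the 7 tested members, Sh2d1a and Slamf7, against 21.8% of genes tested. The log2 difference in BTg against CKO was -0.47 (SE 0.31, interval -1.23 to 0.29; limma adjusted p = 0.693). Against WT the difference was 0.26 in CKO (interval -0.50 to 1.02) and -0.22 in BTg (interval -0.98 to 0.54), each with limma adjusted p = 1. Both differences from WT turned sign when certain libraries were left out: CKO against WT was -0.12 without WT replicate 2, and BTg against WT was 0.16 without WT replicate 1 and 0.01 without BTg replicate 2.

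Ly9 and Cd84 were nearly parallel across the libraries. Ly9 stood at 11.9 and 9.56 FPKM in WT, 6.77 and 10.3 in CKO, and 12.3 and 11.2 in BTg. Cd84, whose protein binds itself and supports contact of T with B cells, stood at 6.29 and 4.46 FPKM in WT, 3.08 and 4.74 in CKO, and 5.3 and 5.28 in BTg. Both were lowest in CKO replicate 1, and in both the BTg libraries lay above the CKO libraries, an order held by 17.8% of genes tested. With each gene centred on its own mean, the log2 values of the pair differed by 0.052 on average over the 6 libraries, less than for any of the other 20 pairs of tested members (0.14 to 0.52). Both are read from the same 6 libraries, so this likeness is a description. Genes outside the family lay closer still, Shisa5 to Ly9 (0.035) and Zfp882 to Cd84 (0.039).

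In BTg against CKO the log2 difference was 0.44 for Ly9 (SE 0.28, interval -0.24 to 1.12; limma adjusted p = 0.686) and 0.38 for Cd84 (SE 0.26, interval -0.27 to 1.02; adjusted p = 0.705). Without CKO replicate 1, the library with the lowest summed CD4 T cell markers, these were 0.17 and 0.13. Without CKO replicate 2 they were 0.71 (interval 0.07 to 1.35; limma adjusted p = 0.166) and 0.63 (interval -0.03 to 1.29; adjusted p = 0.202). Against WT the CKO libraries differed by -0.31 and -0.38, each with adjusted p = 1, -0.04 and -0.14 without CKO replicate 1, and -0.58 and -0.63 without CKO replicate 2. In BTg against WT they were 0.13 (interval -0.55 to 0.80) and -0.01 (interval -0.65 to 0.64), with adjusted p = 1. The difference was 0.20 for Cd84 without WT replicate 1 and -0.02 for Ly9 without WT replicate 2. CKO replicate 1 was the lowest library for 44.5% of genes tested, and its part in these values beyond leaving it out was not tested.

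Slamf6 encodes a self-binding receptor that is a marker of T follicular helper cells and of self-renewing T cells. It stood at 17.2 and 17.9 FPKM in WT, 15 and 24.8 in CKO, and 17.5 and 24.7 in BTg, from 3904 to 6448 reads. The lowest and the highest value both came from CKO, and the groups overlapped in all 3 comparisons. The log2 differences were 0.13 in CKO against WT (interval -0.69 to 0.95), 0.23 in BTg against WT (interval -0.59 to 1.05) and 0.10 in BTg against CKO (interval -0.72 to 0.92), with limma adjusted p = 1, 1 and 0.925. Leaving out a library turned the sign of each: to -0.22 without CKO replicate 2 in the first, to -0.01 without BTg replicate 2 in the second, and to -0.24 without CKO replicate 1 and -0.14 without BTg replicate 2 in BTg against CKO. Replicate 2 lay above replicate 1 in all 3 groups, as it did for 46% of genes tested.

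Cd48 showed the opposite arrangement between the replicates. It stood at 7.48 and 3.41 FPKM in WT, 6.01 and 4.02 in CKO, and 5.7 and 3.86 in BTg, so that replicate 1 was above replicate 2 in each group and above every replicate 2 value of the other groups. Cd48 and Sh2d1a were the 2 tested members with replicate 1 higher in all 3 groups, an arrangement held by 14.9% of genes tested. For Cd48 the log2 differences were -0.04, -0.10 and -0.06 in the 3 comparisons, with intervals of -0.98 to 0.89, -1.04 to 0.83 and -0.99 to 0.88 and limma adjusted p = 1, 1 and 0.965. These intervals, from the fit that does not use the replicate numbers, reach nearly 1 log2 unit in either direction. Without WT replicate 1 the first and second were 0.43 and 0.37. Without CKO replicate 2 the first was 0.20, without BTg replicate 2 the others were 0.13 and 0.18, and without CKO replicate 1 BTg against CKO was 0.18.

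Slamf1 encodes a self-binding receptor that is also a measles virus receptor and a marker of blood stem cells. It stood at 1.07 and 0.838 FPKM in WT, 0.77 and 1.11 in CKO, and 1.08 and 1.27 in BTg, from 401 to 615 reads. Both BTg libraries were above both WT libraries, by a small margin, as for 14.7% of genes tested; the opposite, both below, was held by Slamf7 and by 10.4%. In CKO against WT the 1 member apart was Slamf7, which was higher, against 11.5% of genes tested; 0 members were apart downwards, against 8.96%. The log2 difference of Slamf1 was 0.16 in BTg against WT (interval -0.39 to 0.70), -0.02 in CKO against WT (interval -0.56 to 0.53) and 0.17 in BTg against CKO (interval -0.37 to 0.71), with limma adjusted p = 1, 1 and 0.813. The CKO difference from WT was 0.07 without WT replicate 1 and 0.11 without CKO replicate 1. Cd244a stood at 0.119 and 0.209 FPKM in WT, 0.209 and 0.187 in CKO, and 0.125 and 0.154 in BTg. Below 1 FPKM throughout, from 43 to 84 reads in a library, it was kept out of the main fit. Both BTg libraries were below both CKO libraries, an order held by 21.8% of genes tested. The voom fit did test it, with a log2 difference of -0.51 in BTg against CKO (SE 0.49, limma adjusted p = 0.682).

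**Figure D4:**
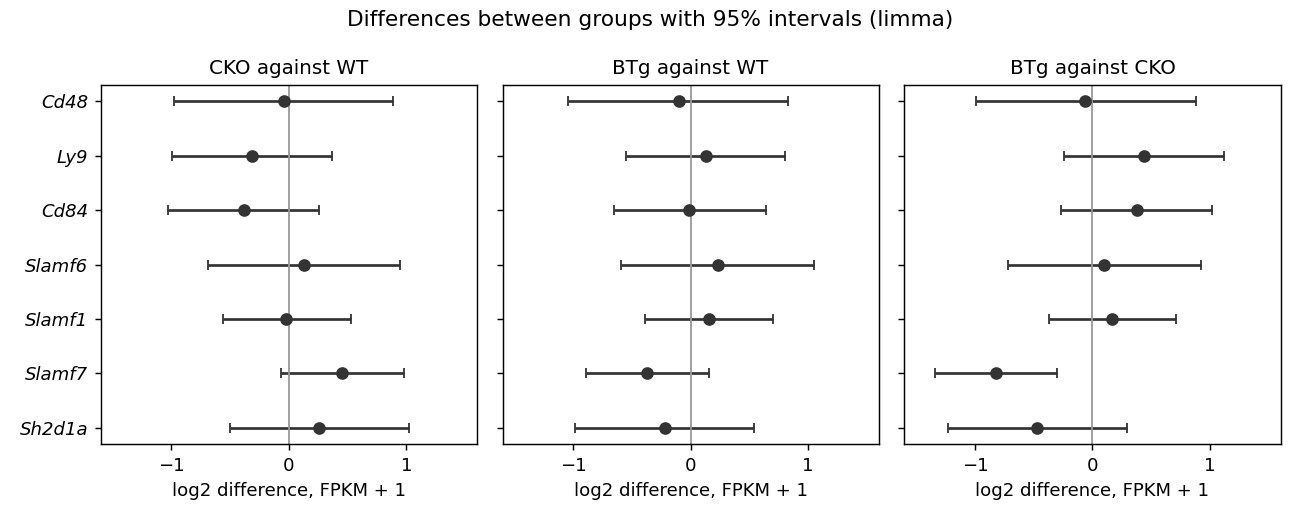
Points give the limma log2 difference on the FPKM + 1 scale for the 7 tested members in the 3 comparisons, and bars the 95% interval from the fit over 6 libraries. Of the 21 intervals, that of Slamf7 in BTg against CKO (-1.34 to -0.30) is the one that leaves out 0.

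The other genes of the family were barely present. Slamf8 and Slamf9, receptors of myeloid cells that lack the SAP docking motif, had 0 to 19 and 3 to 78 reads per library, with the highest in CKO replicate 1. Sh2d1b1 and Sh2d1b2, which encode the EAT-2 adaptors of natural killer and myeloid cells, had 1 to 8 and 0 to 1 reads. Of these 4 genes 0 passed the filter.

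The genes of proteins that act with SLAM receptors and SAP were read from a list of 24, all of which passed the filter. Over all genes tested 0 of 24 passed in each comparison. Between CKO and WT 8 were higher and 16 lower in CKO, against 45.4% of genes tested above 0. The median log2 difference was -0.10, beside -0.03 over all genes tested. Of the 24, 1 was apart upwards and 3 downwards there, against 11.5 and 8.96% of genes tested. The lowest was Dgka (-0.81), which encodes a diacylglycerol kinase that SAP restrains, and the highest were Ptpn11 (0.35), the phosphatase SHP-2, and Dok1 (0.19). In BTg against WT 22 of 24 were higher and 2 lower, against 54.5% of genes tested above 0. The median was 0.17 beside 0.02 over all genes tested. Of these 24, 14 had both BTg libraries above both WT libraries, against 14.7% of genes tested. The CD4 T cell list, which shares Cd3e with these 24, stood at 1759 and 1564 in BTg against 1584 and 1204 in WT. It was higher for 8 of its 10 genes, and the part of T cell content in these counts was not tested. Plcg1, a phospholipase of T cell receptor signalling, was among the highest there (0.44), and the lowest were Ptpn11 (-0.06) and Nck1 (-0.04).

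In BTg against CKO 20 of the 24 partners were higher, with a median of 0.23, against 56.1% of genes tested above 0 and a median of 0.06. Of the 24, 11 were apart upwards and 2 downwards, against 17.8 and 21.8% of genes tested. The CD4 T cell marker sum lay the same way, at 1759 and 1564 FPKM per exon length in BTg and 875 and 1320 in CKO, and its part in these counts was not tested. Dgka, among the highest, stood at 71.9 and 87 FPKM in BTg and 20.6 and 56.9 in CKO, a log2 difference of 1.18 (SE 0.49; limma adjusted p = 0.578). CKO replicate 1 was its lowest library. The lowest differences were those of Ptpn11 (-0.41) and Dok1 (-0.19). Fyn, the kinase that SAP recruits, differed by 0.09 in CKO against WT, 0.08 in BTg against WT and -0.01 in BTg against CKO, and Inpp5d, the phosphatase SHIP-1 that can dock in place of SAP, by 0.14, 0.29 and 0.15. These 2 genes were chosen after their values were seen.

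Genes around the receptor cluster on chromosome 1 were read from a list of 15, of which 9 passed the filter and 0 were called in any comparison. Their median log2 differences were -0.02 in CKO against WT, 0.08 in BTg against WT and 0.08 in BTg against CKO. Arhgap30, which encodes a GTPase-activating protein, was the highest of these in BTg against WT (0.38) and in BTg against CKO (0.54). Copa, a coatomer subunit, was the highest in CKO against WT (0.27), and Nit1, a hydrolase, the next (0.03). Tstd1 was the lowest in CKO against WT (-0.31) and in BTg against WT (-0.46). The Slamf7 difference of -0.82 between BTg and CKO lay below the lowest of these 9, which was Copa at -0.19. Slamf7 was singled out as the member that differed most in these same data, so this contrast tests nothing about the region.

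For each tested member the genes outside the family with the most similar values were those with the smallest mean absolute difference of centred log2(FPKM + 1) over the 6 libraries, among 8241 protein-coding genes. For Slamf7 these were Kif20b (0.059), a mitotic kinesin, and Dgcr6 (0.068). For Ly9 they were Shisa5 (0.035) and Rnf122 (0.037), and for Cd84 Zfp882 (0.039) and Tespa1 (0.044), the latter a signalling protein of T cells. For Cd48 they were Lyrm2 and Zbtb8os, both at 0.055, and for Sh2d1a Pfn2 (0.096) and Smpdl3a (0.10). For Slamf6 they were Parp14 (0.041) and Rassf1 (0.058), and for Slamf1 Atpaf1 (0.021) and Cers5 (0.029). Likeness over 6 libraries says nothing about shared function or control.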

How the data were processed

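Total RNA from TRIzol was the input of NEBNext Ultra libraries, per the labels' protocols. The submitters' processing notes name Trimmomatic 0.38, HISAT2 2.1.0, featureCounts 1.6.0 and the build GRCm38, with annotation release and strand setting not given in the sources used here. FPKM values were deposited by the authors, 1 column per library, for 28914 genes, all matched to GENCODE M21; 1 unnamed column belongs to no sample and was not used. When each gene's length was set to the median span of its transcripts, introns included, 100.0% of values above 0 were whole reads within 0.01, against 21.2 to 22.9% with exon length. Reads recovered in this way gave depths of 14958458 to 17799091 and the FPKM per exon length.

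On the log2(FPKM + 1) scale, the 10798 genes that reached 1 FPKM in 2 or more libraries went into a single limma 3.58.1 fit of the 6 libraries (R 4.3.3; eBayes with a trend) with Benjamini-Hochberg adjustment over all genes tested and a threshold of 0.05. Intervals are 95% from this fit. With 2 against 2 libraries an exact permutation test cannot go below 0.333 (two-sided), so none is given. The fit was tested on simulated data in which 67 genes were changed 2-fold and 67 were changed 4-fold, among others. In CKO against WT, BTg against WT and BTg against CKO it recovered 5, 2 and 7 of the former. Of the latter it recovered 50, 48 and 56, and false calls numbered 7, 6 and 8. A gene that was not called can therefore still differ 2-fold. Recovery at levels as low as those of Slamf7 and Slamf1 was not tested separately. For Slamf7, mean FPKM 3.32-fold higher in CKO than in BTg was a difference of -0.82 in BTg against CKO on the log2(FPKM + 1) scale. The members and lists were chosen with earlier results of these data known. The named genes are the members, Prdm1, the 2 highest and 2 lowest of each list in each comparison, and the 2 nearest genes to each member; others are said to be chosen after seeing values. A gene that this rule names is not reported here. The number of BTg replicate 2 rests on the bracketed part of its title. Alternatives changed the pseudocount, filter, scaling, gene length, test (voom) or variance model, added a replicate block, or dropped 1 library at a time. Figures were drawn with matplotlib 3.10.9.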

Additional observations from a re-analysis of the deposited data

How the results depend on the processing

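Over 18 alternatives 0 SLAM family members passed the threshold in any comparison, and Slamf7 kept its direction in all of those in which it was tested, at 0.32 to 0.83 in CKO against WT, -0.89 to -0.27 in BTg against WT and -1.72 to -0.69 in BTg against CKO, with limma adjusted p = 0.122 to 1 in the last. It was not tested with a filter of a mean of at least 3 FPKM. The counts of all genes called, 0, 2 and 2 in the 3 comparisons, were 65, 46 and 81 without a filter, and 9 in BTg against CKO with exon length. By voom they were 4 in BTg against WT and 7 in BTg against CKO. They were 0 in BTg against WT and BTg against CKO with only the 2 groups compared in the fit, and 0 in BTg against CKO after quantile normalization. Leaving out each library gave 0 to 81 genes in CKO against WT (81 without CKO replicate 2), 0 to 0 in BTg against WT and 0 to 255 in BTg against CKO (255 without CKO replicate 2); an arm of 1 library is then assumed to vary like the others.

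The replicate block gave 0 in both comparisons with BTg, and moved no member past the threshold; it narrowed the intervals of Cd48 to -0.52 to 0.44, -0.58 to 0.38 and -0.54 to 0.42 in the 3 comparisons. Replicate deviations correlated at 0.17, 0.47 and 0.46 between WT and CKO, WT and BTg, and CKO and BTg over 10798 genes, but the labels do not say that a number marks a shared batch. With the replicate block and without CKO replicate 1, chosen after seeing the data, the counts in both BTg comparisons were 0, the differences in CKO against WT were 0.12 for Slamf1, 0.06 for Ly9 and 0.07 for Cd48, and that of Slamf6 in BTg against CKO was -0.11. In that fit Sh2d1a differed by 0.56 in CKO against WT (interval 0.03 to 1.08; limma adjusted p = 0.974) and by -0.77 in BTg against CKO (interval -1.30 to -0.24; adjusted p = 0.476), beside 0.26 and -0.47.

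The direction of several members turned when 1 library was left out. The ranges in CKO against WT were -0.14 to 0.11 for Slamf1, -0.22 to 0.48 for Slamf6, -0.52 to 0.43 for Cd48 and -0.12 to 0.63 for Sh2d1a. In BTg against WT they were -0.01 to 0.47 for Slamf6, -0.21 to 0.20 for Cd84, -0.02 to 0.27 for Ly9, -0.57 to 0.37 for Cd48 and -0.59 to 0.16 for Sh2d1a. In BTg against CKO they were -0.24 to 0.45 for Slamf6 and -0.30 to 0.18 for Cd48. Cd84 in BTg against WT was 0.0015 by voom, beside -0.01. The cause was not tested.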

Other observations

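Set against the summed level of the 10 CD4 T cell markers in the same library, Slamf7 was 0.623 and 0.352% in CKO, 0.155 and 0.272% in WT, and 0.0831 and 0.101% in BTg. The 3 groups were apart on this scale too, a scale chosen after the values were seen. The shares of genes tested that were apart in the same direction were 13.7% in CKO against WT, 23.9% in BTg against WT and 59.3% in BTg against CKO.

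Sh2d1a was 1.5 and 0.987% of that marker sum in CKO, 0.916 and 0.594% in WT, and 0.594 and 0.428% in BTg. Slamf6 was 2.31 and 2.54% in CKO, 1.47 and 2.01% in WT, and 1.34 and 2.14% in BTg, so that it was above WT in both CKO libraries, where the FPKM themselves overlapped. Slamf1 was 0.449 and 0.427% in CKO and 0.345 and 0.355% in WT, also apart upwards. Cd84 went the other way, at 2.57 and 2.62% in CKO against 2.9 and 2.71% in WT, and 3.15% of genes tested were apart downwards there. Ly9 and Cd48 overlapped between CKO and WT on this scale. Between BTg and CKO the order of Ly9 and Cd84 was the reverse of that in FPKM. Ly9 was 3.95 and 4.03% in BTg against 4.37 and 4.42% in CKO, and Cd84 was 2.2 and 2.46% in BTg. Both genes were thus apart downwards in BTg against CKO, as were 59.3% of genes tested on this scale.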
